A study of Homo sapiens with 2 samples.

Results

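The genes described here are 38 genes of G2 and mitosis, taken from the 20136 protein-coding genes of the GENCODE annotation of hg19. The list was given by name and covers cyclins and their kinase, mitotic kinases, kinetochore and checkpoint proteins, spindle proteins, cytokinesis and anaphase factors, and 3 further genes of chromosomes and transcription. For each gene, SOX9 peaks whose summit lay within 1 kb of any annotated transcription start site (TSS) of that gene were taken as promoter peaks, and where there were several, the peak with the most tags was used. The measurements come from ChIP-seq in HT-29, a human colorectal adenocarcinoma line that expresses endogenous SOX9, and no treatment, modification or synchronisation is stated for the cells. The SOX9 group is 1 library made with the Millipore AB5535 antibody, and the input group is 1 library of DNA from the same cells without antibody. Each library held 12320108 tags, and with 1 library in each group there is no replicate check. The values do not separate cells in G2 from other cells, and no RNA was measured, so the label of the list rests on what its genes are known for. All intervals cover counting error only. The labels give DMEM as the culture medium, whereas the methods of the study give McCoy's medium. Tags are aligned reads, the summit is the position of highest tag density that the peak caller MACS gave, and the canonical TSS is that of the 1 transcript per gene which Ensembl marks as representative. Distances from a TSS are negative upstream of it.

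Genes of G2 and mitosis are transcribed periodically, with most of their RNA made late in the cell cycle. Their promoters are known for CCAAT boxes, which bind NF-Y, a complex of the subunits NF-YA, NF-YB and NF-YC, and for the cell cycle genes homology region (CHR), an element close to the TSS that binds MuvB complexes, which repress these genes early in the cycle and activate them late. SOX9 is an HMG-box transcription factor of the colonic crypt, and its classical binding motif is not a CCAAT box.

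The DNA under several strong peaks and under those of CDK1 and its B-type cyclins is shown first, because the CCAAT boxes at the summits are what the gene-by-gene values below are set against. All stretches are from hg19, run 5′ to 3′ on the strand of the gene, and have CCAAT, or ATTGG where the box lies on the other strand, in capitals. A box was also classed as Motif 1, the longer NF-Y site, where CCAAT was preceded by A or G at both positions and followed by C or G and then by A or G. The study uses the name Motif 1 for a motif learned from its SOX9 peaks. The fixed string used here is not that motif and can class a gene differently. TOP2A (chr17:38574291-38574320, minus strand), CDK1 (chr10:62538145-62538174, plus strand), ECT2 (chr3:172468445-172468474, plus strand), TPX2 (chr20:30326995-30327024, plus strand) and CENPA (chr2:27008781-27008810, plus strand) are shown with the box nearest to the summit. The CDK1 stretch lies in an annotated UTR, 3 bases of the ECT2 stretch lie in a UTR, and the other stretches of this set lie outside UTRs.
TOP2A: ctccctaacctgATTGGtttattcaaacaa
CDK1: tagctgggctctgATTGGctgctttgaaag
ECT2: tggagagcgtcgaCCAATcaccgcccctct
TPX2: gcggtctgtagggCCAATcgggagcctgga
CENPA: ggtgcatactctcATTGGccctacctgcag

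Longer stretches show boxes that stand in a row. The CCNB1 stretch (chr5:68462882-68462934, plus strand) has 2 boxes whose starts are 32 bp apart. In CCNB2 (chr15:59397217-59397329, plus strand), 3 boxes follow each other at 33 bp, and the capitals at the end of the stretch mark a CHR.
CCNB1: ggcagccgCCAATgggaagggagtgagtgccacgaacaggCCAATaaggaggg
CCNB2: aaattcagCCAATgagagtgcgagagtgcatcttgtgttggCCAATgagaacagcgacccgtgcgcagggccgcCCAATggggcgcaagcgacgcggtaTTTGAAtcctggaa

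A SOX9 promoter peak was found at 36 of the 38 genes (94.7%), against 44.9% of all protein-coding genes. The exceptions were AURKB and PTTG1. The 36 peaks held a median of 64.5 SOX9 tags (quartiles 51 and 101.75), against 59 (quartiles 41 and 86) over the 9033 protein-coding genes with a promoter peak, and 20 of the 36 lay above that median of all genes. In these intervals the highest SOX9 signal, counted as tags extended to 150 bp in a bin of 32 nt, had a median of 29, against 6 for the highest input signal. For all genes with a promoter peak the corresponding medians were 23 for SOX9 and 6 for input. The share of genes with a peak was thus well above that of all genes, whereas tags and signal overlapped broadly. The promoter summits farthest from a TSS of their own gene were those of AURKA, at -237 bp, and TTK, at -233 bp, so no gene of the list was close to the limit of 1 kb.

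Summed over the 36 intervals, the signal maps held 3393.2 SOX9 tags and 718.8 input tags, a ratio of 4.72 (exact binomial 95% interval 4.35 to 5.12). These intervals were called as peaks because SOX9 tags exceeded input there, so a ratio in favour of SOX9 was fixed in advance. The 95% interval pools the tags of all 36 genes and does not cover the spread among them. This ratio was not computed over the peaks of all genes. The ratio of single genes ran between 2.09 and 19.05. In the median over the 36 genes, the SOX9 signal was highest 64 bp upstream of the canonical TSS, at 25.5 extended tags per bin against 3.5 for input. All genes with a promoter peak had a median of 15 for SOX9 and 3 for input at the same place. A mean over genes gives a taller peak, 34.6 for the 36 genes and 20.4 for all genes at 96 bp upstream, and is weighted by the few genes with very high signal.

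**Figure D1:**
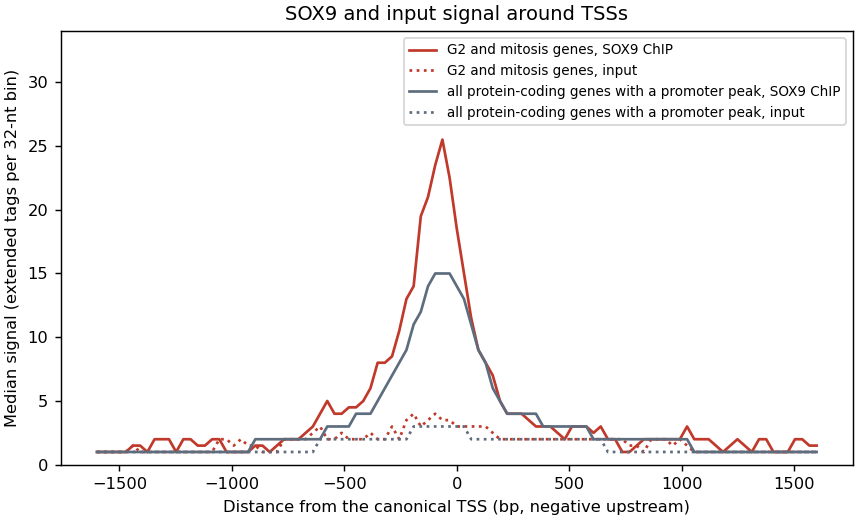
Median signal by distance from the canonical TSS, as extended tags per 32-nt bin, for the 36 G2 and mitosis genes (red) and all 9033 protein-coding genes with a promoter peak (grey), SOX9 solid and input dotted. The red SOX9 line reaches 25.5 and the grey one 15, while both input lines stay at or under 4.

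The cyclins, CDK1, its CKS subunits and the CDC25 phosphatases all had a promoter peak, 9 of 9, with a median of 65 tags. At CCNB2, cyclin B2, the interval chr15:59396969-59397784 held 86.6 SOX9 tags against 18.6 input tags, the highest signal was 61 for SOX9 and 5 for input, and MACS counted 84 tags. Its summit lay 51 bp upstream of the canonical TSS and 1 bp from the nearest of 3 CCAAT boxes. CCNB1, cyclin B1, the activating partner of CDK1 at mitotic entry, had 59.8 SOX9 tags against 10.6 input tags in the interval, with a highest signal of 39 for SOX9 and 6 for input. Both boxes of CCNB1 lay upstream of the TSS, the nearer at 4 bp from the summit, and neither was part of Motif 1. CDK1, the kinase itself, had a peak of 51 tags with a highest signal of 24 for SOX9 and 7 for input, and its 2 boxes also stood 32 bp apart. CCNB1, CCNB2 and CDK1 thus all had boxes 32 or 33 bp apart, and CCNB2 had the highest SOX9 signal of the 3.

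CCNA2, cyclin A2, which acts in S phase and G2, had one of the weaker peaks of this group, with 43 tags and a highest signal of 20 for SOX9 and 6 for input over a single box 9 bp from the summit. CCNF, cyclin F, the substrate receptor of an SCF ubiquitin ligase, had 65 tags and a highest signal of 33 for SOX9 and 4 for input, with the summit 212 bp upstream of the canonical TSS among 3 boxes. The CKS subunits, small proteins that bind the cyclin-dependent kinases, were both above the median of all genes. CKS1B had 117 SOX9 tags against 32.2 input tags in the interval and 4 boxes, of which the nearest was 5 bp from the summit. CKS2 had 90.2 SOX9 tags against 15.6 input tags and 3 boxes.

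CDC25B and CDC25C encode phosphatases that activate CDK1. CDC25B had a peak of 44 tags, with a highest signal of 19 for SOX9 and 4 for input and 1 box at 19 bp. CDC25C had 2 promoter peaks. The stronger, chr5:137673115-137674240, was the strongest of all genes listed, with 381 SOX9 tags (344 to 421, exact Poisson 95% interval) against 19.6 input tags and a highest signal of 139 for SOX9 and 7 for input. It does not lie at the canonical start of CDC25C. Its summit was at -6290 bp from the canonical TSS and 231 bp downstream of an alternative TSS of the gene, and the TSS of another gene, FAM53C, lay only 79 bp away. There was no CCAAT within 100 bp of this summit, but there was a match to Motif 2, the classical SOX motif (capitals below, where it reads on the opposite strand, chr5:137673752-137673781, minus strand, in an annotated UTR). The peak at the canonical CDC25C start had 88 tags, a highest signal of 34 for SOX9 and 4 for input, and 1 CCAAT.
CDC25C: cgagcctggcgCTTTGATttagggatgggg

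Of the 7 mitotic kinases, 6 had a promoter peak, with a median of 55.5 tags. AURKA, Aurora A, which acts at spindle poles, had the most, with 130 SOX9 tags against 45.6 input tags in the interval and a highest signal of 36 for SOX9 and 7 for input. Its summit was at -359 bp from the canonical TSS and only 52 bp from the TSS of the neighbouring gene CSTF1, and the nearest CCAAT was 75 bp away. NEK2, a centrosomal kinase, had 84 tags and a highest signal of 30 for SOX9 and 7 for input, with 2 boxes 32 bp apart and the nearer at 4 bp from the summit. BUB1B, which encodes the checkpoint protein BUBR1, had 60 tags and no CCAAT near the summit. BUB1, a kinase of the spindle checkpoint, had 51 tags and 2 boxes, and a highest signal of 28 for SOX9 and 12 for input, where input signals of the 36 peaks ran between 3 and 13.

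TTK and PLK1 were the weakest kinases with a peak. TTK, the checkpoint kinase MPS1, had 39 SOX9 tags against 7.8 input tags, no CCAAT within 100 bp of the summit and a summit 233 bp upstream of the TSS. PLK1, Polo-like kinase 1, had 33.4 SOX9 tags against 11 input tags and a single box 12 bp from the summit. AURKB, Aurora B, the kinase of the chromosomal passenger complex, had no promoter peak. Within 500 bp of its canonical TSS there were 24.4 SOX9 tags and 11.8 input tags, a ratio of 2.0 whose exact binomial 95% interval, 0.962 to 4.39, includes a ratio of 1. The peak nearest to the AURKB start was at -10370 bp, with 51 tags. In the same window, the 11103 protein-coding genes without a promoter peak had a median of 5.2 SOX9 tags and a 90th percentile of 31.8, so AURKB lay between these levels. Its counts do not show that SOX9 is absent there.

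The 6 kinetochore, checkpoint and chromosomal passenger genes all had a promoter peak, and their median of 94.5 tags was the highest among the groups with more than 3 genes. CENPE, a kinesin of the kinetochore, had 168.6 SOX9 tags against 18.6 input tags and a highest signal of 118 for SOX9 and 6 for input, all without a CCAAT within 100 bp of its summit. A cAMP response element (CRE), TGACGTCA, did lie within 100 bp of the summit and is shown in capitals, since CENPE was the strongest peak at a canonical start without a box (chr4:104119596-104119625, minus strand, 7 bases in a UTR).
CENPE: ggaatggcccaTGACGTCAcgaggccacgg

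CENPA, the histone H3 variant of centromeres, had 136.4 SOX9 tags against 20.2 input tags and a highest signal of 85 for SOX9 and 6 for input, with 3 boxes, of which the nearest was 33 bp from the summit. It also had a weaker promoter peak of 27 tags at an alternative TSS, at -21823 bp from the canonical one. CENPF, a kinetochore protein of G2 and mitosis, had 97.2 SOX9 tags against 11.4 input tags and 4 boxes, the nearest at 7 bp. NDC80, the microtubule-binding subunit of the outer kinetochore, had 92.2 SOX9 tags, but 39 input tags, and its ratio of 2.36 (1.61 to 3.52) was the lowest after that of ANLN. The summit of the NDC80 peak fell on the TSS of METTL4, at a distance of 0 bp, and had a CRE but no CCAAT.

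BIRC5 and MAD2L1 were weaker. BIRC5, survivin, a subunit of the chromosomal passenger complex, had 53.4 SOX9 tags against 9 input tags and no CCAAT within 100 bp of the summit. MAD2L1, which encodes the checkpoint protein MAD2, had 45.2 SOX9 tags against 16.8 input tags, and its single box was 69 bp from the summit.

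All 7 spindle motors and spindle proteins had a promoter peak, with a median of 64 tags. TPX2, an activator of Aurora A and a factor in spindle assembly, stood out with 164.2 SOX9 tags against 37.8 input tags and a highest signal of 50 for SOX9 and 9 for input. NUSAP1, a microtubule-binding protein, had 91 SOX9 tags against 34.8 input tags, with a summit 35 bp downstream of the canonical TSS and a single box 97 bp away. KIF11, the kinesin Eg5, which pushes spindle poles apart, had 72 tags over a single box of Motif 1 at 65 bp from the summit, and a second promoter peak of 45 tags at -1464 bp from the canonical TSS.

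The remaining spindle genes had between 34 and 64 tags. KIF20A, a kinesin of the central spindle, had 64 tags with 2 boxes, and KIF23, a kinesin subunit of centralspindlin, had 53 tags with 1. HMMR, a spindle protein that is also known as a hyaluronan receptor, had the most CCAAT of all genes, 5 within 100 bp of the summit, yet its peak held 51 SOX9 tags against 18.8 input tags with a highest signal of 24 for SOX9 and 7 for input. Of these 5 HMMR boxes, 2 overlap in opposite orientations with starts 3 bp apart, and none was part of Motif 1. KIF2C, the microtubule-depolymerising kinesin MCAK, was the weakest of the group, with 34.6 SOX9 tags against 11.6 input tags, no CCAAT and a MACS false discovery rate of 0.01%.

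The 3 cytokinesis genes all had a promoter peak. ECT2, the exchange factor that activates RHOA at the cleavage furrow, had 189.4 SOX9 tags against 41.6 input tags, a highest signal of 53 for SOX9 and 7 for input, and 3 boxes with the nearest at 11 bp. RACGAP1, the GTPase-activating subunit of centralspindlin, had 51.8 SOX9 tags against 20 input tags and a single box 43 bp from the summit. ANLN, anillin, a scaffold of the contractile ring, had 73 SOX9 tags against 35 input tags over a wide interval of 1356 bp. The ANLN ratio of 2.09 (1.38 to 3.22) was the lowest of the 36 genes, its summit lay 512 bp downstream of the canonical TSS, it had no CCAAT, and its MACS false discovery rate, an empirical percentage, of 0.05% was the highest of the 36.

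Of the 3 anaphase genes, UBE2C and CDC20 had a promoter peak. UBE2C, the ubiquitin-conjugating enzyme of the anaphase-promoting complex, had 272.8 SOX9 tags against 38.4 input tags in the interval. Its highest SOX9 signal of 183, against 13 for input, was the highest of all 38 genes, and 4 boxes lay within 100 bp of the summit. CDC20, an activator of the same complex, had 48.6 SOX9 tags against 13.2 input tags and 2 boxes 45 bp apart. PTTG1, securin, the inhibitor of separase, had no promoter peak. It had 33.2 SOX9 tags against 17 input tags within 500 bp of the TSS, a ratio of 1.94 (1.05 to 3.72). The nearest peak was at -109139 bp from the PTTG1 start, and the 33.2 SOX9 tags at PTTG1 were above the 90th percentile, 31.8, of all genes without a promoter peak. Both genes without a peak carry CCAAT: AURKB and PTTG1 each have 3 boxes in the 200 bp upstream of the TSS. Of the listed genes with at least 3 boxes there, 7 of 9 (77.8%) had a SOX9 promoter peak, against 78.6% of all such protein-coding genes.

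The last group holds TOP2A, MKI67 and FOXM1, all with a promoter peak. TOP2A, topoisomerase II alpha, which untangles chromosomes, had 204.2 SOX9 tags against 14.8 input tags, a highest signal of 135 for SOX9 and 6 for input, and a ratio of 13.6 (8.05 to 24.7). Its 3 boxes, all of Motif 1, stood 67 and 84 bp apart, and the summit was 9 bp from the middle one. MKI67, which encodes the proliferation antigen Ki-67, had 53.2 SOX9 tags against 8.2 input tags and 2 boxes 74 bp apart. FOXM1, a transcription factor of G2 and mitosis genes, had the weakest peak of the 36, with 30.2 SOX9 tags against 7.2 input tags and a highest signal of 12 for SOX9 and 4 for input. The FOXM1 summit lay 10 bp from its own TSS and 15 bp from that of RHNO1.

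Across the list, CCAAT was the most common of the elements searched at the summits, and also the shortest string. It was present within 100 bp of the summit, on either strand, in 28 of the 36 peaks (77.8%), against 32.2% of all protein-coding genes with a promoter peak. Motif 1 was found at 20 of the 36 genes (55.6%), against 16.1%. Counted over all genes with or without a peak, 20 of 38 (52.6%) had a peak with Motif 1, against 7.22% of all protein-coding genes. At least 2 boxes stood at 20 of the 36 genes (55.6%), against 15.0%, and at least 3 at 10 genes (27.8%), against 5.44%. These shares are nested, since Motif 1 contains CCAAT. ANLN, BIRC5, BUB1B, CDC25C, CENPE, KIF2C, NDC80 and TTK had no box in this window.

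**Figure D2:**
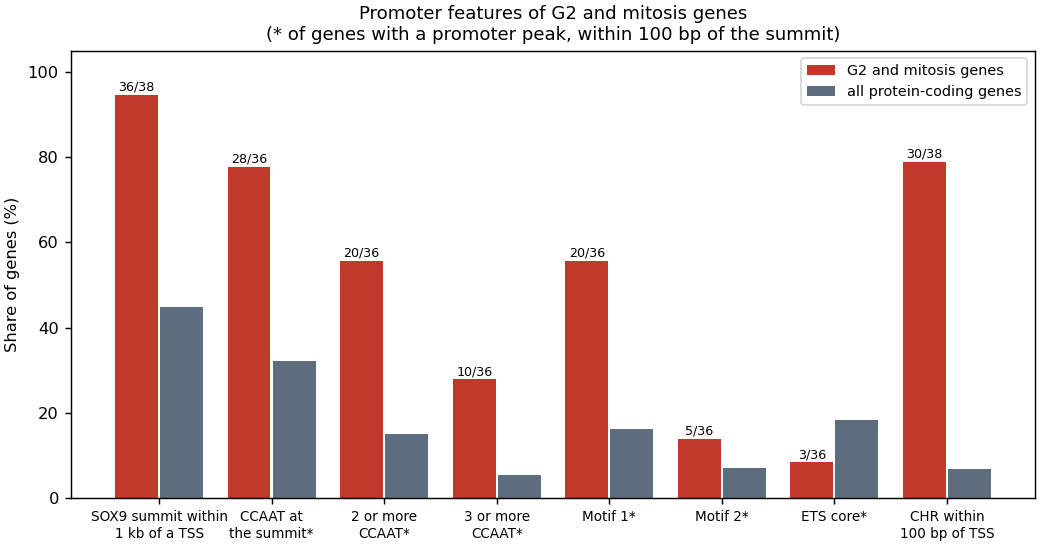
Share of the G2 and mitosis genes (red, with counts) and of all protein-coding genes (grey) that have each feature, in percent, where features marked with an asterisk are counted among genes with a promoter peak. The red bars are above the grey ones for the promoter peak, CCAAT, Motif 1, Motif 2 and the CHR, and below for the ETS core.

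The boxes lay close to the summits and just upstream of the TSSs. The 28 genes held 63 boxes, of which 26 were part of Motif 1, 60 lay upstream of the canonical TSS, and 32 read CCAAT and 31 ATTGG on the strand of the gene. Their median position was 77 bp upstream. Boxes were searched only within 100 bp of the summits, which themselves lay mostly upstream. Box positions from the TSS and the share of boxes in Motif 1 were not counted over all genes. The box nearest to the summit was at a median of 15 bp, against 23 bp in all genes with CCAAT, and within 20 bp in 64.3% of the genes, against 46.4%. The offset depends on how many boxes there are to choose from. With a single box, the median offset was 35.5 bp in 8 of the listed genes, against 41 bp in 1553 genes. The summits themselves lay at a median of 47.5 bp upstream of the nearest TSS, against 49 bp in all genes, and upstream in 30 of 36 genes (83.3%), against 73.8%.

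Several genes had neighbouring boxes at similar distances. Of the 35 neighbouring pairs at the listed genes, 9 (25.7%) had starts 30 to 35 bp apart, against 339 of 1677 pairs (20.2%) at all promoter peaks, so the shares were close. All 9 pairs were 31 to 33 bp apart, a range chosen from these same pairs, which held 206 of the 1677 pairs (12.3%). The 9 pairs are at CCNB1, CCNB2, CDK1, CKS1B, HMMR, NEK2 and UBE2C, and in every one of them both boxes have the same orientation. Pairs at other spacings, such as those of TOP2A, CENPA and ECT2, also shared an orientation, while those of CENPF did not. The share with the same orientation was not counted over all promoter peaks. Counted by gene, a neighbouring pair 30 to 35 bp apart was present at 7 of 36 genes (19.4%), against 4.11%. Among genes with at least 2 boxes, 7 of 20 had such a pair, against 27.3%, a smaller gap than without regard to the number of boxes.

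Among the listed genes with a box, median SOX9 tags were higher where there were more boxes. Genes of the list with at least 3 boxes had a median of 106.5 tags and a median highest SOX9 signal of 55. Of these, 9 of 10 lay above the median tags of all genes, as did 399 of the 491 protein-coding genes with at least 3 boxes. With 2 boxes the medians were 56 tags and 26.5, and with 1 box 48 tags and 21. The groups overlapped, with 51 to 272 tags for at least 3 boxes, 31 to 163 for 2 and 33 to 88 for 1. Divided by the relative input level of the surrounding 1 Mb, their median tags were 99.3, 62.7 and 40.5. Over all protein-coding genes with a promoter peak, the medians were 97 tags for at least 3 boxes, 73 for 2, 58 for 1 and 56 for none. The 8 genes of the list without a box did not follow this order, with a median of 67.5 tags. Of these, CDC25C and CENPE had 381 and 166 tags, whereas KIF2C and TTK had 34 and 39. The CDC25C value is that of the peak beside the FAM53C TSS, which cannot be assigned to either gene. At its canonical start, CDC25C had a peak of 88 tags with 1 CCAAT, which is not in this group. HMMR, with 5 boxes, went against the order on the other side, with 51 tags. The order was not seen in the other lists of cell cycle genes described below, in groups of 5 to 9 genes. For 1, 2 and at least 3 boxes, median tags were 36, 100 and 59 at other G2 and mitosis genes. They were 102, 81.5 and 90 at G1/S and replication genes.

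**Figure D3:**
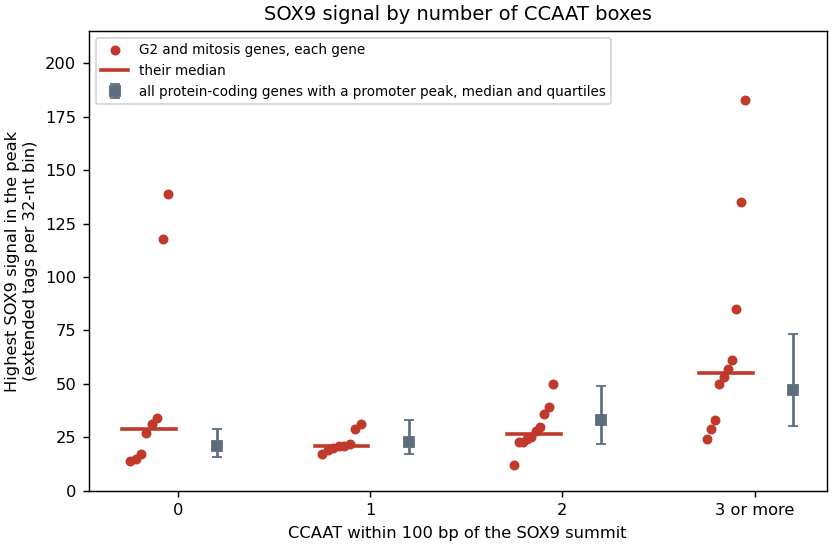
Highest SOX9 signal in the promoter peak (extended tags per 32-nt bin) by the number of CCAAT boxes within 100 bp of the summit, for each G2 and mitosis gene (red points, line at the median) and for all protein-coding genes with a promoter peak (grey squares, median with quartiles). The red medians are 29, 21, 26.5 and 55 for 0, 1, 2 and at least 3 boxes, and the grey ones 21, 23, 33 and 47.

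Other elements were less common at these summits. Motif 2, searched here as CAA preceded by A or T at both positions and followed by A or T and then G, was present at 5 of 36 genes (13.9%), against 7.03%. These were AURKA, CDC25C, CDK1, KIF20A and UBE2C, and all but CDC25C also had CCAAT within 100 bp of the summit. A Motif 2 match can share bases with a CHR. In the CDK1 stretch shown above, ctttgaa matches Motif 2 on the other strand, and its tttgaa is also counted as a CHR. How often both elements share bases was not counted. The CRE stood at 4 genes, AURKA, CCNA2, CENPE and NDC80 (11.1%), against 2.75%. The ETS core CCGGAAG was found at 3 genes (8.33%), CCNB1, KIF23 and TPX2, against 18.2%. The 8 genes without CCAAT had none, against 20.2% of all genes whose promoter peak has no CCAAT. The SP core GGGCGG, a common element of GC-rich promoters, was present at 21 genes (58.3%), against 62.7%.

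The CHR, TTTGAA or TTCGAA on either strand, was within 100 bp of the canonical TSS in 30 of the 38 genes (78.9%), against 6.83% of all protein-coding genes. This is a property of the reference sequence and uses no SOX9 measurement. The CHR centre lay 10 to 40 bp upstream of the TSS in 16 genes (42.1%), against 1.13%. In PLK1, CCNB2 and CKS2 it stood 27 bp upstream, in CKS1B and CDC25C 28 bp, and in UBE2C 29 bp. The 8 genes without a CHR in this window were CCNA2, CCNB1, CENPE, KIF20A, KIF2C, NEK2, PTTG1 and TOP2A. The TOP2A stretch shown above does hold a match, TTCAAA, which is TTTGAA on the other strand. It lies upstream of this window at the canonical TSS. The study numbers the TOP2A promoter from a TSS nearer to this stretch, so the absence at TOP2A depends on the TSS used. Among the 20 genes whose promoter peak had Motif 1, 16 (80.0%) had a CHR, against 6.88% of all protein-coding genes whose promoter peak had Motif 1. These shares were close to those without regard to Motif 1, 78.9% of the listed genes and 6.83% of all protein-coding genes. The CHR was thus about as common with Motif 1 as without regard to it.

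Input signal differed along the HT-29 genome, so tags were also divided by the input level of the surrounding 1 Mb. Whether this level bears on the tag counts was not tested. Relative to the median autosomal window, input in the surrounding 1 Mb was 1.80 at UBE2C, 1.79 at CCNB2, 1.67 at TPX2 and BUB1B and 1.57 at NDC80, against 0.70 at BUB1. Divided by this level, UBE2C had 151 tags, CENPE 149 and TOP2A 148, behind CDC25C with 363. On this scale the listed genes had a median of 59.4, against 54.0 for all genes with a promoter peak, and CCNB2, with 47.0, fell below both.

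Only 3 of the 36 summits (8.33%) were nearer to the TSS of another protein-coding gene, against 15.1%, and these were the peaks of AURKA, CDC25C and NDC80 described above. For such peaks the SOX9 tags cannot be assigned to either gene. The same holds at FOXM1, whose summit lay 10 bp from its own TSS, 15 bp from that of RHNO1 and 39 bp from that of TULP3. ANLN, CKS1B, HMMR, KIF20A and NUSAP1 also had the TSS of another protein-coding gene within 1 kb of the summit, though farther away than their own.

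Other genes of the cell cycle were counted beside the listed ones. A promoter peak was present at 94.7% of the listed genes, at 24 of 27 other genes of G2 and mitosis (88.9%) and at 37 of 43 genes of G1/S and replication (86.0%), against 44.9% of all protein-coding genes. A peak with Motif 1 was present at 52.6% of the listed genes, at 12 of the other G2 and mitosis genes (44.4%) and at 17 of the G1/S and replication genes (39.5%), against 7.22% of all protein-coding genes. A CHR stood at 78.9% of the listed genes, 63.0% of the other G2 and mitosis genes and 6.98% of the G1/S and replication genes, against 6.83% of all protein-coding genes. Promoter peaks, with and without Motif 1, were therefore common in all 3 lists, while the CHR was common in the lists of G2 and mitosis and as rare in the list of G1/S and replication as over all genes. Median tags were 64.5 at the listed genes, 76 at the other G2 and mitosis genes and 84 at the G1/S and replication genes, against 59 at all genes, so the listed genes had the lowest of the 3 list medians.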

How the data were processed

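The authors aligned single-end reads of 50 nt to hg19 with BWA (per the submitters' processing notes and the study's methods), kept unique alignments without duplicates, and downsampled the input to the number of ChIP alignments. MACS counted 12319746 unique tags in the SOX9 library and 12320062 in the input. Peak calling by the authors used MACS version 1.3.7.1 on the single SOX9 library, with a tag size of 50, a band width of 150, a model fold of 16 and a p-value limit of 1.00e-07, and gave 17847 peaks. For every peak the authors deposited a count of ChIP tags, a score (minus 10 times the log10 of the p-value from MACS), a fold enrichment over what the input nearby predicts, and a false discovery rate in percent, obtained by swapping ChIP and input. The signal that the authors deposited counts, in every 32-nt bin, the tags that reach it once each has been lengthened to 150 bp. Each tag fills 5 bins, so sums were divided by 5 to give tags, which fall slightly off the MACS counts at interval ends. Libraries were made from fragments selected at 175 to 225 bp, so a summit is not located to the base.

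Summits were placed on GENCODE release 44 for hg19 (254376 transcripts, 20136 protein-coding genes, Ensembl canonical TSSs), where the study used RefSeq. Motifs were searched on both strands in the reference sequence as fixed strings, where the study scanned for motifs learned from its peaks. Shares of all protein-coding genes were computed by the same rule and set beside those of the list as a description. They were not matched to the list for expression. No test was run, since there is 1 library in each group. Tag counts carry exact Poisson intervals and SOX9 to input ratios exact binomial (Clopper-Pearson) intervals on tags rounded to whole numbers, both at 95% and for counting error only. All 38 genes are named, by role, with the strongest promoter peak. Stretches printed are the nearest CCAAT of TOP2A, CCNB1, CCNB2 and CDK1 and of the 4 other genes with the most tags among those with CCAAT, of which 1 stretch is not reported here. The CDC25C and CENPE stretches, the CRE and SP cores, the spacing of boxes and the CHR at 10 to 40 bp were added after values were seen. The list, the other lists and the rules were chosen with earlier results of these data known. Planted motifs, TSS distances and intervals were tested on simulated data. Alternatives were other distances, TSS sets, motif windows and peak thresholds, midpoints, other measures of strength and nearest genes. Fold enrichment in place of tags, canonical TSSs for tags and the CHR at any TSS were chosen after seeing the data. Software was Python 3.11.15 with matplotlib 3.10.9, pandas 2.3.3, SciPy 1.17.1 and NumPy 2.4.6.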

Additional observations from a re-analysis of the deposited data

How the results depend on the processing

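Of 34 alternatives, 32 stayed within 1.5 times the count, within counting error of the value or, for distances, within 1 bin of 32 nt, and none changed the sign of a median or turned the order of median tags. For the CHR, 1 TSS per gene was the main setting itself, so that alternative could not differ. Median tags, scaled to the median of all genes, were held against the Poisson interval of a single count of that size. That range is wide, so staying within it says little. CCAAT within 25 bp of the summit was found at 18 genes, against 16.5% of all genes with a promoter peak, and the pooled SOX9 to input ratio was 4.22 within 500 bp of the TSS of all 38 genes. That window also takes in the 2 genes without a peak. A MACS score of at least 100 left 31 genes with a promoter peak, against 35.9% of all genes, and counting a summit only for the nearest gene left 34, against 38.8%. Over whole peak intervals, CCAAT was at 30 genes, but also at 63.5% of all genes with a peak. A CHR within 100 bp of any annotated TSS was at 33 genes, against 35.9%, a higher share of all genes than at canonical TSSs. With the midpoint of the interval in place of the summit, the median distance from a TSS was -60.5 bp, against -35 bp, so the listed genes then lay farther upstream than all genes, and with summits slightly nearer. With the peak nearest to a TSS in place of the strongest, median tags were 59.5, against 57.

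With 1 library in each group, the difference between SOX9 and input has no replicate check, and no library could be left out. No paired analysis was possible because each group holds 1 library. Genes with fewest tags, such as FOXM1 with 31 and PLK1 with 33, have the widest intervals for their size.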
